A study of Mus musculus with 6 samples.

Results

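The enzymes that build the cores of mucin-type O-glycans were followed on 6 Affymetrix arrays of MLE-15 cells, 3 from control cells and 3 from cells given PMA. The genes were C1galt1, its chaperone C1galt1c1, B3gnt3, Gcnt1, Gcnt3 and B3gnt6, chosen by function and found through the RefSeq accession in the name of each probe set. All 6 were measured, by 8 of the 1246 probe sets, out of 909 named genes in all. For Gcnt1 and Gcnt3, which had 2 probe sets each, the one with the higher mean over the 6 arrays stood for the gene.

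MLE-15 is a mouse lung epithelial line from a tumour of mice that carried a viral large T antigen under the surfactant protein C promoter, so it is 1 immortalised line and all samples share that transgene. Control cells were untreated, and PMA cells were given phorbol 12-myristate 13-acetate, an activator of protein kinase C that stands in for diacylglycerol, at 10 nM for 24 h per the series design text. The design asks whether genes of mucin glycosylation are expressed and are induced by PMA. Nothing in the labels says that the 3 samples of a group came from separate cultures, so each p measures only the spread between these samples. Each group has samples numbered 1, 2 and 3, and what a shared number stands for is not given in the sources used here. The titles of number 1 are written MLE-15CTL and MLE-15PMA, without a letter. Those of numbers 2 and 3 are written MLE15CTL and MLE15PMA with the letter A or B, and the reason is not given.

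Mucin-type O-glycosylation starts when GalNAc is placed on serine or threonine. C1galt1 then adds galactose to make core 1, and it needs C1galt1c1, also called Cosmc, to fold. Gcnt1 adds a GlcNAc branch to core 1 to make core 2. B3gnt6 adds GlcNAc to the first GalNAc instead, which makes core 3, and Gcnt3 branches core 1 or core 3 to make core 2 or core 4. B3gnt3 extends core 1 with GlcNAc. In airway mucus these cores carry the arms that receive sialic acid, sulfate and fucose.

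Array medians lay between 5.64 and 5.71 log2 units. With 3 arrays a group, precision is limited. The 2 number 1 arrays stood apart from the other 4 in both groups: at least 112 probe sets differed by over 1 log2 unit between control 1 and any array of numbers 2 and 3, against 0 between any 2 of those 4 arrays. Each result below is therefore given within the numbers too. Of the fixed lung epithelial markers 2 of 13 were measured, the surfactant proteins Sftpd and Sftpa1, with means of 5.40 and 3.51 over all arrays, too few to check the label. Of the leukocyte markers 10 of 20 were measured, from Clec4a2 at 2.88 to Ccr7 at 7.22, and of the endothelial and fibroblast markers 8 of 15, from Lum at 3.00 to Vcam1 at 9.57.

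The promoter windows at hand, for 3 of the 6 enzymes, differed in GC content and in the motifs they held. RefSeq's table (GRCm38.p6) held windows for 3 of the 6 genes, namely C1galt1, B3gnt3 and Gcnt1. The 250 bases before each start site are printed 5′ to 3′, with capitals marking any match on either strand to TGACTCA (the AP-1 site, the classical phorbol ester response element), GGGCGG (the GC box) or TATAAA (the TATA box). No 2 of these motifs overlap there. All 3 genes with a window are shown, whatever their array values.
C1galt1 chr6:7844974-7845223, plus strand: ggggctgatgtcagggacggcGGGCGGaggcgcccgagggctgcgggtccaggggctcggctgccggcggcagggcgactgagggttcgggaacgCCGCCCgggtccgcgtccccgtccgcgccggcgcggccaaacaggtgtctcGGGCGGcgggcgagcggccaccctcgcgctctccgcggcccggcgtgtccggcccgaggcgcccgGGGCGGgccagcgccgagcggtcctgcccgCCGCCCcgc
B3gnt3 chr8:71701801-71702050, minus strand: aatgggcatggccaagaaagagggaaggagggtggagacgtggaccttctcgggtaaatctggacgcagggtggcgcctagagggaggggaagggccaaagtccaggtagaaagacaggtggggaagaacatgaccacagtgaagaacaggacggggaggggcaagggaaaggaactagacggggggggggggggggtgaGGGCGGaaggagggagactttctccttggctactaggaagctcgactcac
Gcnt1 window 1 chr19:17372845-17373094, minus strand: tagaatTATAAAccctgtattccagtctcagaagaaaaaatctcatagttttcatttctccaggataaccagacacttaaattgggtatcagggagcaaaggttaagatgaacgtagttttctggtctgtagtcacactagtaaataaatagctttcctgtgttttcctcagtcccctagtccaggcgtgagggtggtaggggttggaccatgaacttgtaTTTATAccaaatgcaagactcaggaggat
Gcnt1 window 2 chr19:17356668-17356917, minus strand: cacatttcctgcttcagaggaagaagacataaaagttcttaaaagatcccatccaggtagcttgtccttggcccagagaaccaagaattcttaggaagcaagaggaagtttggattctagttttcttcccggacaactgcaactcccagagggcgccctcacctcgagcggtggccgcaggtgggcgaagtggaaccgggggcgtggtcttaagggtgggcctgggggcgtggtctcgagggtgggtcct
Gcnt1 window 3 chr19:17339506-17339755, minus strand: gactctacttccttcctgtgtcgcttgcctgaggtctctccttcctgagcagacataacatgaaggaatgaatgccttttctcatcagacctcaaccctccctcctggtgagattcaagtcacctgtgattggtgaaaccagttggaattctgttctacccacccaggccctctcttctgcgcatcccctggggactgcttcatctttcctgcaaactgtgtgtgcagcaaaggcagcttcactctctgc
The C1galt1 window held 5 GC boxes and 44 CpG dinucleotides at a GC content of 82.8%, against a median of 52.4% over 32851 windows of the same length. The B3gnt3 window held 1 GC box at a GC content of 60.0%. Gcnt1 has 3 start sites with a GC content of 40.4%, 55.6% and 51.6%, and window 1 held 2 TATA boxes. None of the 5 windows held TGACTCA, which 4.46% of all windows did. GGGCGG was in 32.7% and TATAAA in 12.4% of all windows. These are matches of letters only, and the arrays do not tell which Gcnt1 start site was used.

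None of the core enzymes passed the test for a PMA difference. Values are RMA levels on the log2 scale, in which 1 unit is a doubling, and group values are mean ± SD with n = 3 arrays. By limma with Benjamini-Hochberg adjustment over all 1246 probe sets, 0 of the 6 genes passed an adjusted p of 0.05, against 0% of all probe sets, and 0 of the 6 had an unadjusted p under 0.05, against 0.321%. This fit leaves the gap between numbers in its error, which widens the SE of genes with such a gap. For Gcnt3 the SE was 0.54 log2 units, and 0.068 with the number as a block, a fit given below. The largest mean difference among the 6 was -0.17 log2 units, in B3gnt3. The control and PMA arrays overlapped in all 6 genes, while 3.37% of all probe sets had no overlap.

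**Figure D1:**
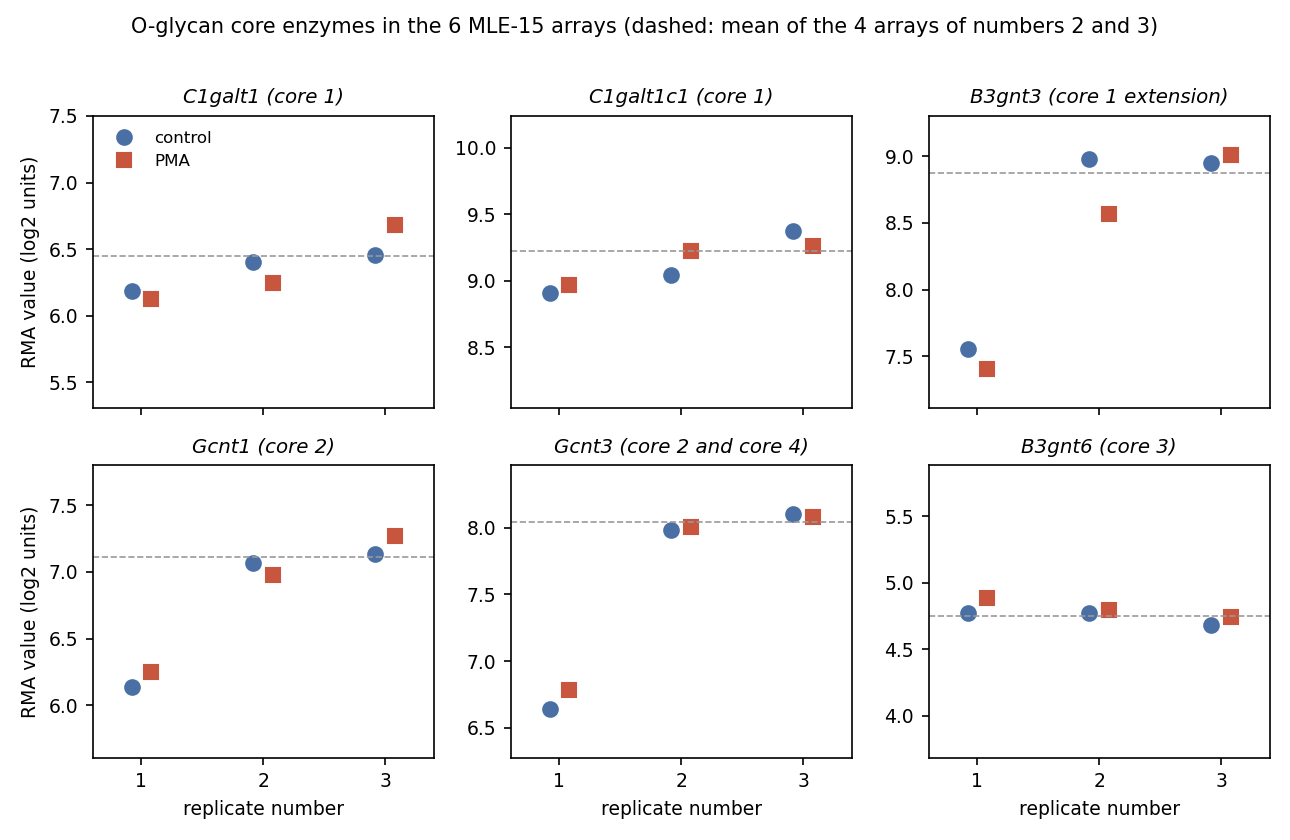
RMA value in log2 units (y) by replicate number (x) for the 6 core enzymes, with circles for control and squares for PMA arrays and a dashed line at the mean of the 4 arrays of numbers 2 and 3; every panel spans the same number of log2 units. B3gnt3, Gcnt1 and Gcnt3 sit lower in number 1 in both groups. The control and PMA points of a number differ most in B3gnt3 number 2, where PMA minus control is -0.41 log2 units.

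The core 1 enzymes came first. C1galt1, the core 1 galactosyltransferase, read 6.18, 6.40 and 6.46 in control arrays 1, 2 and 3 and 6.12, 6.25 and 6.68 in PMA arrays 1, 2 and 3. PMA 3 was the highest and PMA 1 the lowest, so the PMA arrays spread around all the controls. Its means were 6.35 ± 0.15 and 6.35 ± 0.29, a difference of 0.0027 log2 units (SE 0.17) with an adjusted p of 0.999 by limma. Within the numbers the difference was -0.058, -0.16 and 0.22.

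C1galt1c1, the chaperone that C1galt1 needs, read 8.91, 9.04 and 9.37 in control and 8.97, 9.22 and 9.26 in PMA arrays. The PMA arrays all lay inside the control range. The means were 9.11 ± 0.24 and 9.15 ± 0.16, a difference of 0.044 (SE 0.15; limma adjusted p = 0.999), with 0.060, 0.18 and -0.11 within the numbers.

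B3gnt3, which lengthens core 1 and so opens it to further sugars, read 7.56, 8.98 and 8.95 in control and 7.40, 8.57 and 9.01 in PMA arrays. Both number 1 arrays were lowest, and PMA 2 lay below the 3 other arrays of numbers 2 and 3. The means were 8.49 ± 0.81 and 8.33 ± 0.83, a difference of -0.17 (SE 0.58; limma adjusted p = 0.999). Within the numbers the difference was -0.15, -0.41 and 0.065, so number 2 gave most of it and number 3 had the other sign. The B3gnt3 probe set carries the suffix s, which marks probes that can bind several transcripts.

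The core 2 branching enzymes had a PMA difference near 0 and a wide gap between numbers. Gcnt1, the core 2 enzyme also known from leukocytes, read 6.14, 7.07 and 7.14 in control and 6.25, 6.98 and 7.27 in PMA arrays. Its means were 6.78 ± 0.56 and 6.83 ± 0.53, a difference of 0.052 (SE 0.38; limma adjusted p = 0.999), with 0.11, -0.094 and 0.14 within the numbers. The 2 number 1 arrays were lowest, whichever the treatment.

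Gcnt3, the mucin-type branching enzyme of core 2 and core 4, read 6.64, 7.98 and 8.10 in control and 6.79, 8.01 and 8.08 in PMA arrays. The 4 arrays of numbers 2 and 3 lay within 0.12 log2 units of each other, and both number 1 arrays lay well below them. The means were 7.58 ± 0.81 and 7.63 ± 0.73, a difference of 0.050 (SE 0.54; limma adjusted p = 0.999), with 0.14, 0.027 and -0.021 within the numbers.

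B3gnt6, the core 3 enzyme, read 4.77, 4.77 and 4.68 in control and 4.89, 4.80 and 4.74 in PMA arrays. Its values were close together in all 6 arrays, and the groups overlapped. The means were 4.74 ± 0.051 and 4.81 ± 0.075, a difference of 0.068 (SE 0.068; limma adjusted p = 0.999). B3gnt6 was the 1 gene of the 6 with the same sign in every number, at 0.12, 0.026 and 0.058, and 23.1% of all probe sets had the same sign in every number. Its mean over the 6 arrays, 4.77, was not far above 4.39, the lower quartile of all probe set means, and no background probes were available here to say whether the transcript was present.

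With the replicate number as a block, which compares PMA with control inside each number, limma again called 0 of the 6 genes and 0% of all probe sets. None of the 6 had an unadjusted p under 0.05, against 3.37% of all probe sets, and the smallest unadjusted p, in B3gnt3, was 0.103. The blocked 95% intervals of the 6 differences lay between -0.37 and 0.22 log2 units. That of B3gnt3 ran from -0.37 to 0.041, and that of Gcnt3 from -0.10 to 0.20. Without the block the spread between numbers widened them, to between -1.61 and 1.27 for B3gnt3 and between -1.30 and 1.40 for Gcnt3. For C1galt1 the 2 intervals were -0.19 to 0.19 and -0.42 to 0.42.

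**Figure D2:**
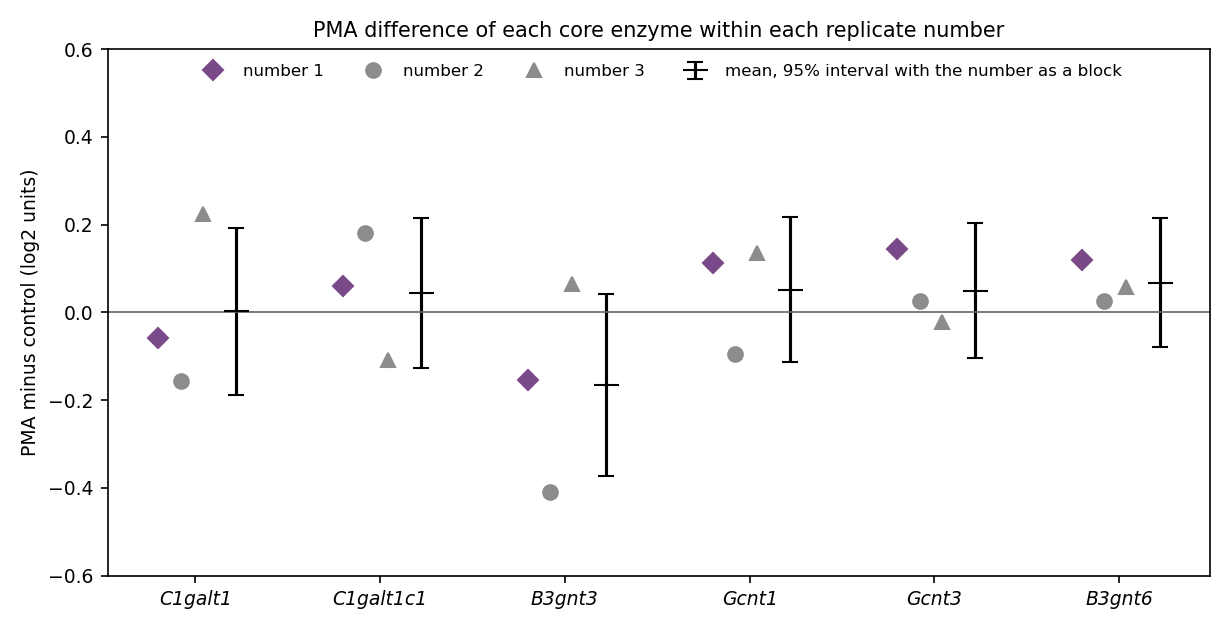
PMA minus control in log2 units (y) for each core enzyme (x), with a diamond, circle and triangle for replicate numbers 1, 2 and 3 and a bar for the mean with its 95% interval in the fit with the number as a block. Every interval includes 0, and B3gnt3 in number 2, at -0.41, is the point farthest from 0.

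Between the numbers, 4 of the 6 core enzymes differed past the test. The branching and extending enzymes B3gnt3, Gcnt3 and Gcnt1 were lower in the 2 number 1 arrays by 0.92 to 1.40 log2 units, and the chaperone C1galt1c1 by 0.28. The other 2, C1galt1 at -0.29 and B3gnt6 at 0.082, did not pass. This comparison, with PMA as a term, called 4 of the 6 genes by limma with Benjamini-Hochberg adjustment, all lower. It called 41.7% of all probe sets, 27.5% higher and 14.1% lower in number 1. The median difference was -0.61 over the 6 genes and 0.079 over all probe sets. The comparison sets 2 arrays against 4 and was chosen with earlier results of these data known, so its p-values compare these arrays only. It treats the arrays as independent, though same-numbered arrays deviated alike. It is also 1 number against 2 others, so its p-values hold no replication of number 1.

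B3gnt3 averaged 7.48 over the number 1 arrays and 8.88 over the other 4, a difference of -1.40 log2 units (SE 0.11; limma adjusted p = 1.93e-06), or 2.63-fold lower. The gap was -1.41 in control and -1.39 in PMA arrays. Gcnt3 averaged 6.71 and 8.04, a difference of -1.33 (SE 0.074; limma adjusted p = 1.52e-07), or 2.52-fold lower, with -1.40 in control and -1.26 in PMA arrays. For both genes the gap was larger than the whole range of the 4 other arrays, which was 0.44 for B3gnt3 and 0.12 for Gcnt3.

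Gcnt1 averaged 6.19 and 7.11, a difference of -0.92 (SE 0.088; limma adjusted p = 1.09e-05), or 1.89-fold lower, with -0.97 in control and -0.87 in PMA arrays. The other probe sets of both branching enzymes, each with the suffix s, gave a like gap, at -1.12 (SE 0.11) for Gcnt1 and -1.17 (SE 0.096) for Gcnt3. Their PMA differences had the other sign from those of the first probe sets, at -0.043 for each. So the probe sets of a gene gave 1 direction between numbers and opposite signs for PMA.

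**Figure D3:**
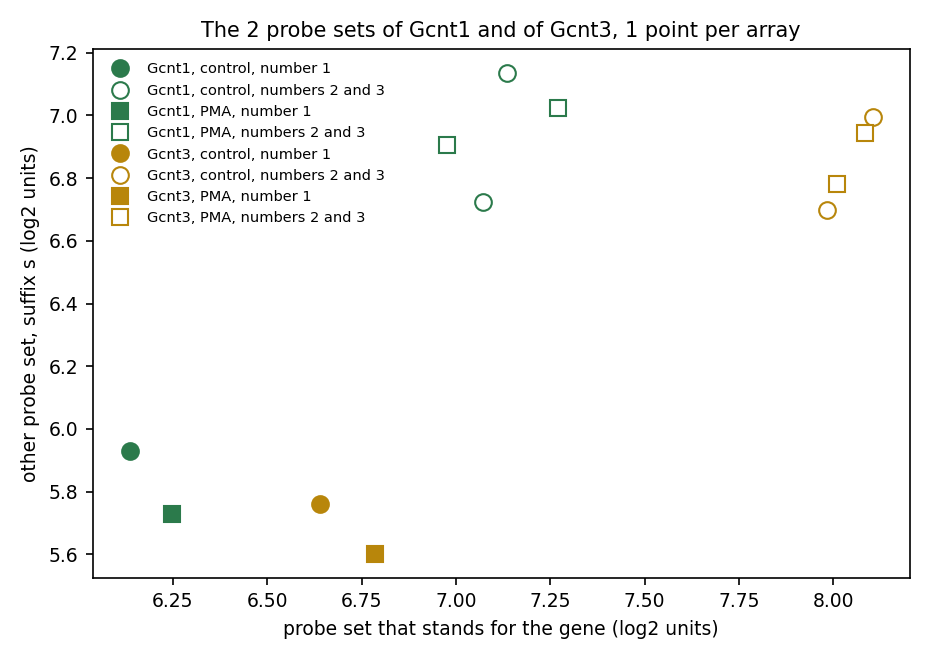
RMA values in log2 units of the probe set that stands for Gcnt1 or Gcnt3 (x) against the gene's other probe set (y), with 1 point per array, circles for control and squares for PMA, filled for number 1. On both probe sets of each gene the filled points lie below and left of the open ones.

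C1galt1c1 averaged 8.94 in number 1 and 9.22 elsewhere, a difference of -0.28 log2 units (SE 0.091; limma adjusted p = 0.0284), or 1.22-fold lower. This call was lost without control 1 (adjusted p = 0.179), control 3 (adjusted p = 0.0690), PMA 1 (adjusted p = 0.147) or PMA 3 (adjusted p = 0.0711), and with quantile normalization repeated the difference was larger, at -0.48 (adjusted p = 0.000728). C1galt1 averaged 6.15 and 6.45, a difference of -0.29 (SE 0.11) that missed the threshold at a limma adjusted p of 0.0509. Without PMA 2 the difference was -0.38 and passed (adjusted p = 0.00405), and without PMA 3 it was -0.19 (adjusted p = 0.0821). The 95% intervals of the core 1 pair, -0.53 to -0.054 for C1galt1 and -0.49 to -0.082 for C1galt1c1, did not meet those of Gcnt1 (-1.12 to -0.72) or Gcnt3 (-1.50 to -1.17), though the differences between genes were not tested.

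B3gnt6 averaged 4.83 and 4.75, a difference of 0.082 (SE 0.069; limma adjusted p = 0.379) with a 95% interval of -0.071 to 0.24. It was the 1 gene of the 6 whose number 1 arrays overlapped the others. The other 5 did not overlap and were lower, while 55.9% of all probe sets had no overlap, 18.1% lower and 37.8% higher in number 1.

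Whether the PMA difference depended on the number was tested directly. With limma's interaction of PMA with number 1, 0 of the 6 genes passed, against 0.0803% of all probe sets, and 0 of the 6 had an unadjusted p under 0.05, against 5.62%. The smallest adjusted p among the 6 was 0.842, in Gcnt3, where the interaction was 0.14 log2 units (95% interval -0.18 to 0.47). Over the 6 genes the intervals reached from -0.64 to 0.57, so number 1, with 1 array a group, leaves room for a difference of that size.

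Some markers of other cells also differed in number 1. The mean level of the 10 leukocyte markers was 4.81 to 4.95 in the number 1 arrays and 5.44 to 5.48 in the others. Of the 10, 2 were called lower and 0 higher, against 14.1% lower and 27.5% higher of all probe sets. Those 2, Ccr7 at -3.22 and Mrc1 at -2.74 log2 units, carried that gap: the other 8 lay between -0.17 and 0.23, and the median of the list was -0.0059. The mean level of the 8 endothelial and fibroblast markers was 5.45 to 5.48 against 6.06 to 6.24, with a median difference of -0.53. Of the 8, 4 were called lower and 1 higher, to be read against the same shares. Those 4 were Dcn at -2.31, Pecam1 at -1.37, Vcam1 at -1.31 and Sele at -1.13. Selp was called higher at 0.39, and Pdgfra at 0.20, Emcn at 0.13 and Lum at 0.074 were not called, so the list did not move as a whole. The mean level of the 2 lung epithelial markers was 4.65 to 4.70 against 4.29 to 4.44, with 1 of the 2 called higher, against 27.5%. No value on the log2 scale is a true 0 here. The part of such cells, or of fewer cells of a type against less RNA per cell, in the core enzyme values was not tested.

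Around the cores, genes of the other steps were called in both directions between numbers, to be read against the 27.5% higher and 14.1% lower of all probe sets. All 19 listed initiating GalNAc-transferases were measured, and 5 were higher and 2 lower in number 1, led by Galnt10 at 1.33 and Galnt12 at 1.14 log2 units. Of 13 measured enzymes that extend or branch the arms (of 16 listed), 5 were higher and 4 lower, led by B3galt5, which extends core 3 with galactose, at -2.17 and B3gnt7 at 1.99. Of 20 capping enzymes measured (of 21 listed), 6 were higher and 2 lower, led by the sialyltransferase St6galnac2 at 2.82 and the GlcNAc 6-O-sulfotransferase Chst2 at 1.47. Of 14 carriers measured (of 22 listed), 2 were higher and 3 lower, led by the mucins Muc5ac at -2.59 (SE 0.17) and Muc5b at -1.13. Median differences in these lists were 0.079, 0.11, 0.096 and -0.043, near the 0.079 of all probe sets, beside -0.61 for the cores. The called shares of the initiating, capping and carrier lists, 7 of 19, 8 of 20 and 5 of 14, were near the 41.7% of all probe sets. That of the extending and branching list was higher, at 9 of 13, beside 4 of 6 for the cores. Its median absolute difference was 0.64 log2 units and that of the cores 0.61. The 4 called cores were all lower, while that list had 5 higher and 4 lower. Of the cores not called, B3gnt6 had the other sign. A low median was not particular to the cores, as the endothelial and fibroblast markers had one of -0.53.

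For PMA without the block, the same lists had 0 genes past the test and 0 at an unadjusted p under 0.05 by limma. Their differences were higher with PMA in 11 of 19, 5 of 13, 15 of 20 and 11 of 14 genes, with medians of 0.011, -0.0082, 0.052 and 0.030 log2 units. The core enzymes had 5 of 6 higher and a median of 0.047. Over all probe sets the median was 0.0033, and 651 of 1246 were higher. With the replicate block, the extending and branching list had 1 gene at an unadjusted p under 0.05 by limma. It was Gcnt2, at 0.17 log2 units (unadjusted p = 0.0385). The initiating, capping and carrier lists had 0, against 3.37% of all probe sets.

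**Figure D4:**
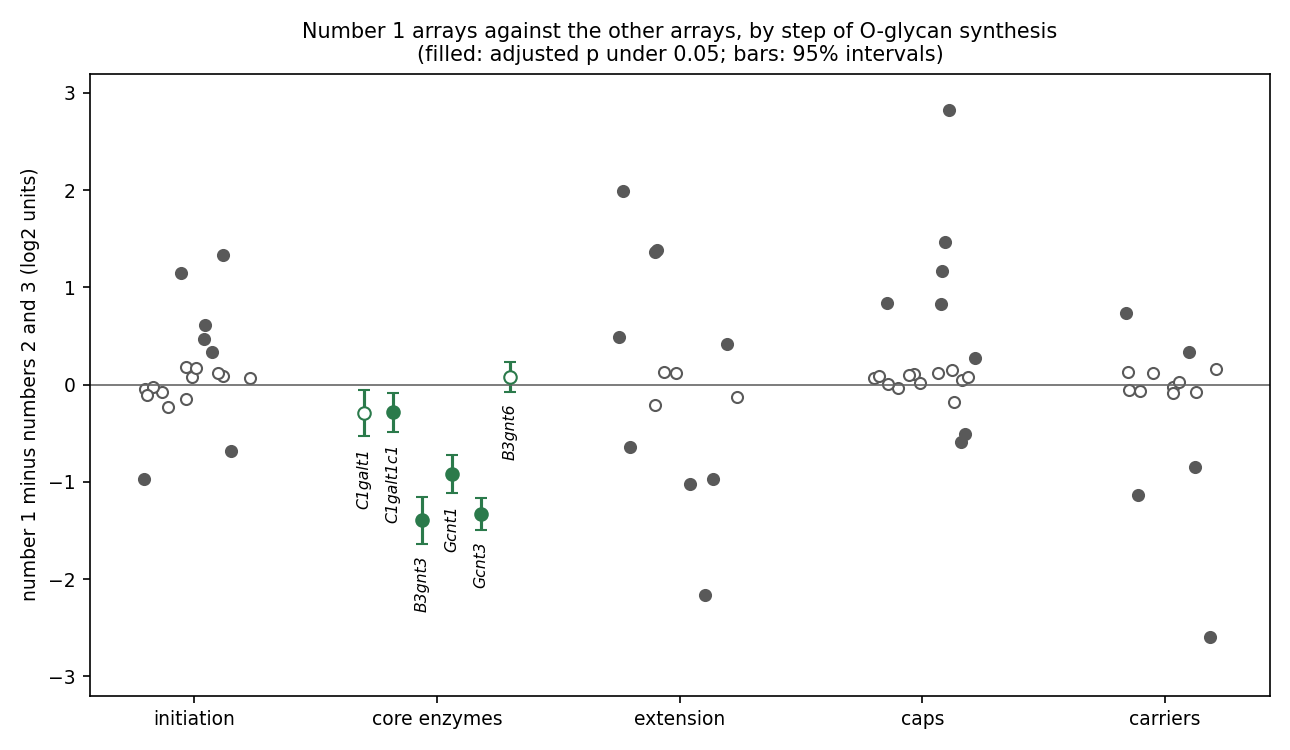
Difference between the 2 number 1 arrays and the 4 other arrays in log2 units (y) by step of O-glycan synthesis (x), 1 point per gene, filled where the adjusted p was under 0.05, with 95% intervals for the core enzymes; the sideways spread of other points carries no value. Of the core enzymes 4 are filled, all below 0, and the other steps have filled points on both sides of 0.

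The array pattern of B3gnt3, the core enzyme with the lowest difference, was nearest to that of Areg among 908 other named genes. Likeness was taken as the root mean square distance over the 6 arrays between values centred on each gene's own mean. Areg, the growth factor amphiregulin, lay at 0.13 log2 units, Pgm2, a phosphoglucomutase, at 0.14, and Gcnt3 itself came next at 0.16. Areg read 11.88, 13.24 and 13.37 in control and 12.03, 13.10 and 13.32 in PMA arrays, and Pgm2 had a number 1 difference of -1.24. Among the 6 core enzymes the closest pairs were C1galt1 with C1galt1c1 at 0.14 and B3gnt3 with Gcnt3 at 0.16, and the farthest was B3gnt3 with B3gnt6 at 0.72. The distance is not scaled, so genes that vary little come out close even where their patterns differ. Genes with a number 1 difference of like size also come out close, as with Areg at -1.31 and B3gnt3 at -1.40. C1galt1 and C1galt1c1 had PMA differences of opposite sign within every number. B3gnt6, the gene with the highest difference, was nearest to Gdf3, a TGF-β family ligand (0.020), Extl1 (0.023) and Il1f10 (0.026), all of which varied little.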

How the data were processed

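Total RNA was extracted with Trizol and labelled from 0.5 µg, per the labels' protocols. The deposited values are log2 values made with RMA, per the submitters' processing notes. RMA quantile-normalizes the arrays, so a shift of all transcripts one way would not show. The name of the array, the genome build and the version of RMA are not given in the sources analysed. Values were used as deposited, with no filter on low values. Of 1246 probe sets, 963 were named through RefSeq accessions without versions (RefSeq table of GRCm38.p6). Probes differ in response, so levels do not order transcripts by abundance; quartiles and ranges over probe sets only place a signal on the array.

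PMA and control, number 1 and the other numbers (with PMA as a term), and their interaction were tested with limma 3.58.1 in R 4.3.3 (lmFit, eBayes, Benjamini-Hochberg over all probe sets, threshold 0.05), tested on simulated data. SE is limma's moderated standard error.

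The members and lists were chosen with earlier results of these data known. Named are all members, the 2 listed genes of largest absolute number 1 difference per list (and any that passed for PMA), the 3 genes nearest to the members with the highest and lowest difference, and the markers of highest and lowest mean. Ccr7 and Mrc1, as called markers, the endothelial and fibroblast markers other than Lum and Vcam1, and Gcnt2 were named after their values were seen.

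Deviations from the group mean of same-numbered arrays correlated across probe sets at 0.956, 0.815 and 0.912, all over 0.1, so a replicate block was fitted. Number 1 lies apart from the rest, which by itself makes numbers 2 and 3 alike in this check. Alternatives were array centring, repeated quantile normalization, the mean of a gene's probe sets, a filter on low values, leaving out suffixes s and x, eBayes with trend and robust, 1 term for number 1, no PMA term, and leaving out number 1 or each array.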

Additional observations from a re-analysis of the deposited data

How the results depend on the processing

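With the replicate block the PMA comparison again called 0 genes, so the block changed no call there, the 1 comparison it was run for. For PMA, 0 probe sets and 0 core enzymes were called under all 15 alternatives run. The sign of the small PMA differences was not stable: C1galt1 became -0.0096 with arrays centred on their medians and -0.0098 with quantile normalization repeated. Leaving out each array in turn, which unbalances the numbers, gave PMA differences of -0.16 to 0.12 for C1galt1, -0.055 to 0.18 for C1galt1c1, -0.64 to 0.30 for B3gnt3, -0.27 to 0.34 for Gcnt1, -0.42 to 0.47 for Gcnt3 and 0.027 to 0.10 for B3gnt6. In the interaction, the sign turned with centring for C1galt1c1 (-0.022) and B3gnt3 (-0.028), and with the mean of a gene's probe sets for Gcnt1 (-0.070) and Gcnt3 (-0.016). The interaction called 1 of all probe sets and 0 with quantile normalization repeated; the cause was not tested. Between numbers, no core enzyme changed sign, and B3gnt3, Gcnt1 and Gcnt3 passed under every alternative that gave a test, though B3gnt3 has no value once suffixes s and x are left out. Leaving out each array gave 3 to 5 called core enzymes, beside 403 to 543 of the 1246 probe sets. C1galt1 passed with centring (limma adjusted p = 0.0481), without suffixes s and x (0.0466), with trend and robust (0.0472) and with no PMA term (0.0423), over a range of 0.00405 to 0.317 in all alternatives. Signal over background is unknown, which limits what B3gnt6 can show.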

Other observations

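Among other genes of the extending and branching list, those that lengthen chains did not share a direction in number 1. The genes below were named after their values were seen. B3gnt2, which starts poly-N-acetyllactosamine repeats, differed by -1.02 log2 units (SE 0.091) and B3gnt5, which acts on glycolipids, by -0.97 (SE 0.090). B4galt1 and B4galt5, both galactosyltransferases, differed by 1.36 (SE 0.12) and 1.38 (SE 0.080). Gcnt2, which makes the I branch and is a relative of Gcnt1 and Gcnt3, differed by -0.64 (SE 0.080). These are limma values from 2 arrays against 4, each with an adjusted p under 0.05.

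The 1 probe set called in the interaction of PMA with number 1, uc009kma.1_psr1_at, is unnamed here. It read 4.62, 8.22 and 8.23 in control and 5.85, 8.31 and 8.21 in PMA arrays, an interaction of 1.21 log2 units (limma adjusted p = 0.0360). It rests on 1 control and 1 PMA array in number 1, and 0 probe sets were called with quantile normalization repeated.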
